A study of Mus musculus with 13 samples.

Results

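Acetyl-CoA is the common currency of the cell's carbon metabolism, and the genes described here are those of the routes that make it, move it or replace it when the main cytosolic source, ATP citrate lyase (Acly), is deleted in macrophages. The set held 10 genes of the 24445 with a symbol in the count table: Acly itself, Slc25a1, Acss2, Acss1, Crat, Acat1, Pdha1, Pdhb, Dlat and Me1. They were chosen by symbol for their known roles, at a time when earlier results of these data were known. Each was represented by the RefSeq transcript with its highest total count. Acly had 2 transcripts in the table with the same counts, Me1 had 2 with different counts, and the other genes had 1 each. Only the chosen transcript of Me1 is described here. All 10 passed the filter on low counts.

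RNA-seq was performed on bone marrow-derived macrophages (BMDMs) of female mice, grown for 7 days in medium conditioned by L929 cells and stimulated with 100 ng/mL lipopolysaccharide (LPS), a bacterial cell wall component, for 3 h or 24 h. Control cells (Acly fl/fl, labelled WT) came from C57Bl/6J mice with loxP sites around exon 9 of Acly, and AclyM-KO cells (labelled KO) came from the same floxed strain crossed with Lyz2-Cre mice. The recombinase is thus driven by the Lyz2 promoter, which is active in myeloid cells, so a BMDM carries the deletion only where Cre has acted. Ages are not given in the sources used here, all groups received LPS, and unstimulated cells were not analysed here. The labels do not say that replicates came from separate mice, so p-values measure the spread between these libraries, which may be technical.

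There were 3 libraries per group, except 4 in control 24 h. Total counts were 21274102 to 59577343 in 12 libraries and 34467 in control 24 h replicate 1, where each of the 10 genes had at most 4 counts. That library was left out of the values below, and with it included no fold change of the 10 genes moved by more than 0.01 on the log2 scale and no gene changed its side of the test. Levels are CPM, which are counts relative to the TMM-adjusted total of each library, and levels of different genes are compared only per kilobase of transcript. Macrophage markers were high in every library: 6 of them without Lyz2 summed to 3484 to 4067 CPM, with ranges that overlapped between the genotypes at both times. The sum hides single markers that differed at an adjusted p under 0.05 in edgeR's test. Mertk was lower in AclyM-KO at both times (log2 fold changes of -0.31 and -0.33). At 3 h Fcgr1 was lower (-0.26) and Adgre1 higher (0.24). Csf1r, Cd68 and Itgam passed at neither time. Lyz2, the locus from which Cre is expressed, was lower in AclyM-KO by a log2 fold change of -0.97 at 3 h and -1.40 at 24 h. Neutrophil markers summed to at most 10.7 CPM, dendritic cell markers to at most 2.4 CPM and fibroblast markers to at most 1.2 CPM, and the 3 erythroid markers were at 0. The summed dendritic cell markers were higher in AclyM-KO than in control at both times. At 3 h the sums were 1.69 to 2.4 against 1.39 to 1.5 CPM, and at 24 h 0.442 to 0.576 against 0.275 to 0.384 CPM. Of these markers Xcr1 alone passed the filter on low counts. Its genotypes overlapped at both times and it passed edgeR's test at neither (adjusted p = 0.337 and 0.293). The part of these markers in the results was not tested. In bulk RNA, fewer cells that express a gene and less RNA per cell cannot be told apart.

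Acetyl-CoA is made inside mitochondria from pyruvate by the pyruvate dehydrogenase complex and from fatty acids, and it cannot cross the inner membrane. It leaves as citrate through the carrier encoded by Slc25a1, and Acly splits that citrate in the cytosol into acetyl-CoA and oxaloacetate, the former feeding fatty acid and cholesterol synthesis and histone acetylation. Acss2 makes acetyl-CoA from acetate in the cytosol and nucleus without Acly, Acss1 does so in mitochondria, Crat exchanges acetyl groups between CoA and carnitine, and Me1 turns cytosolic malate into pyruvate and yields NADPH.

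The deleted segment is shown because it limits what the Acly counts can tell. In GENCODE's annotation of the counted Acly transcript (GRCm38, chr11:100476353-100528000, minus strand), exon 9 of 29 lies at chr11:100514962-100515098, has 137 bases, is wholly coding, and makes up 3.1% of the 4426 transcript bases. Counts from the other exons remain possible after deletion, and the count per transcript does not separate them. The exon number is the study's, and its match to this annotation was by number alone. The sequence is printed 5′ to 3′ on the coding strand, in lower case throughout.
Acly exon 9: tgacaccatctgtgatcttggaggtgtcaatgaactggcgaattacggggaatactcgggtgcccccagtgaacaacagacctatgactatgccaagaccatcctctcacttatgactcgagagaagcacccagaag

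The promoters of the genes with the largest changes apart from Acly are shown next (Acss2 and Me1), with that of Slc25a1, the other gene whose genotype effect changed with time. These are the 250 bases before the annotated start, from RefSeq on GRCm38.p6, 5′ to 3′ on the gene's strand, and capitals mark letters that matched a searched motif on either strand. Acss2 lies at chr2:155517793-155518042 (plus strand), Slc25a1 at chr16:17928220-17928469 (minus strand) and Me1 at chr9:86695915-86696164 (minus strand).
Acss2: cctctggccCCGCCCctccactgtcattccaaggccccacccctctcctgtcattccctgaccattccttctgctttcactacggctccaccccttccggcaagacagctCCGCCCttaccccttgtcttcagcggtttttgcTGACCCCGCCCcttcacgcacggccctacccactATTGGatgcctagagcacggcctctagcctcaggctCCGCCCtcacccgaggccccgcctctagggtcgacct
Slc25a1: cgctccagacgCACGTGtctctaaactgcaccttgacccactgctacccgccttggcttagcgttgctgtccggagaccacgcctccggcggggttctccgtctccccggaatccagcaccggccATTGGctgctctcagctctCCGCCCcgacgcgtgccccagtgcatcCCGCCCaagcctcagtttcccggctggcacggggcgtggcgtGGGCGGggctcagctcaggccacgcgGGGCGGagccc
Me1: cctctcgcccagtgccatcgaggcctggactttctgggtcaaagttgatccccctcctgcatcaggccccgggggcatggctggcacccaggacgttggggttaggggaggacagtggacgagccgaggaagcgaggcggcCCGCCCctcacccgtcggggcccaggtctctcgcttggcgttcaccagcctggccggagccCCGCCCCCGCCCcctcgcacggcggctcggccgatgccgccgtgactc

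The motifs were the GC box GGGCGG, the CCAAT box CCAAT, the E-box CACGTG, an antioxidant response element TGACNNNGC and a sterol regulatory element core TCACNCCAC. Acss2 held 4 GC boxes, 1 CCAAT box and 1 antioxidant-type match, whose letters overlap those of a GC box. Slc25a1 held 4 GC boxes, 1 CCAAT box and 1 E-box, and Me1 held 3 GC boxes. Among all 32851 promoters of the same length, 32.7% held a GC box, 33.8% a CCAAT box, 6.02% an E-box, 10.2% the antioxidant-type letters and 1.05% the sterol core. Of the 10 genes, 8 had a promoter entry (Crat and Acat1 did not), and the sterol core was in none of these windows. A match is a description of letters and says nothing about binding.

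Acly, which splits citrate, was lower in AclyM-KO at both times. In control the levels were 105, 107 and 106 CPM at 3 h and 113, 109 and 107 CPM at 24 h. In AclyM-KO they were 37.7, 46.2 and 41.5 CPM at 3 h and 30.1, 30.5 and 29.1 CPM at 24 h. The genotypes did not overlap at either time. The log2 fold change was -1.34 ± 0.06 (SE) at 3 h and -1.88 ± 0.06 at 24 h (n = 3 per group, adjusted p = 6.41e-16 and 4.81e-20, edgeR's quasi-likelihood test with Benjamini-Hochberg adjustment). The effect was larger at 24 h by -0.54 ± 0.09 on the log2 scale (adjusted p = 9.29e-05, edgeR). Between 3 h and 24 h the log2 fold change of Acly was 0.05 ± 0.06 in control (95% interval -0.07 to 0.17, not past the test), while in AclyM-KO it fell by 0.49 (adjusted p = 6.10e-08, edgeR).

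Apart from Acly, 3 of 9 genes were higher in AclyM-KO at 3 h (Acss2, Slc25a1 and Crat) and none passed edgeR's test at 24 h, where Slc25a1 alone of the 9 had an unadjusted p under 0.05 and DESeq2 also called 0 of 9. Of all 11904 genes tested, 15.4% differed by genotype at 3 h (8.5% higher and 6.91% lower in AclyM-KO) and 13.9% at 24 h (8.32% higher and 5.57% lower). The median log2 fold change of the 10 genes was 0.07 at 3 h and -0.00 at 24 h, against -0.01 and 0.01 over all genes tested. The median absolute change was 0.23 at 3 h against 0.15 over all genes, and 0.07 at 24 h against 0.13. Only Acss2 and Acly also passed the study's fold threshold of 0.75 on the log2 scale at 3 h, which 2.01% of all genes did; at 24 h Acly alone did, against 1.38% of all genes.

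**Figure D1:**
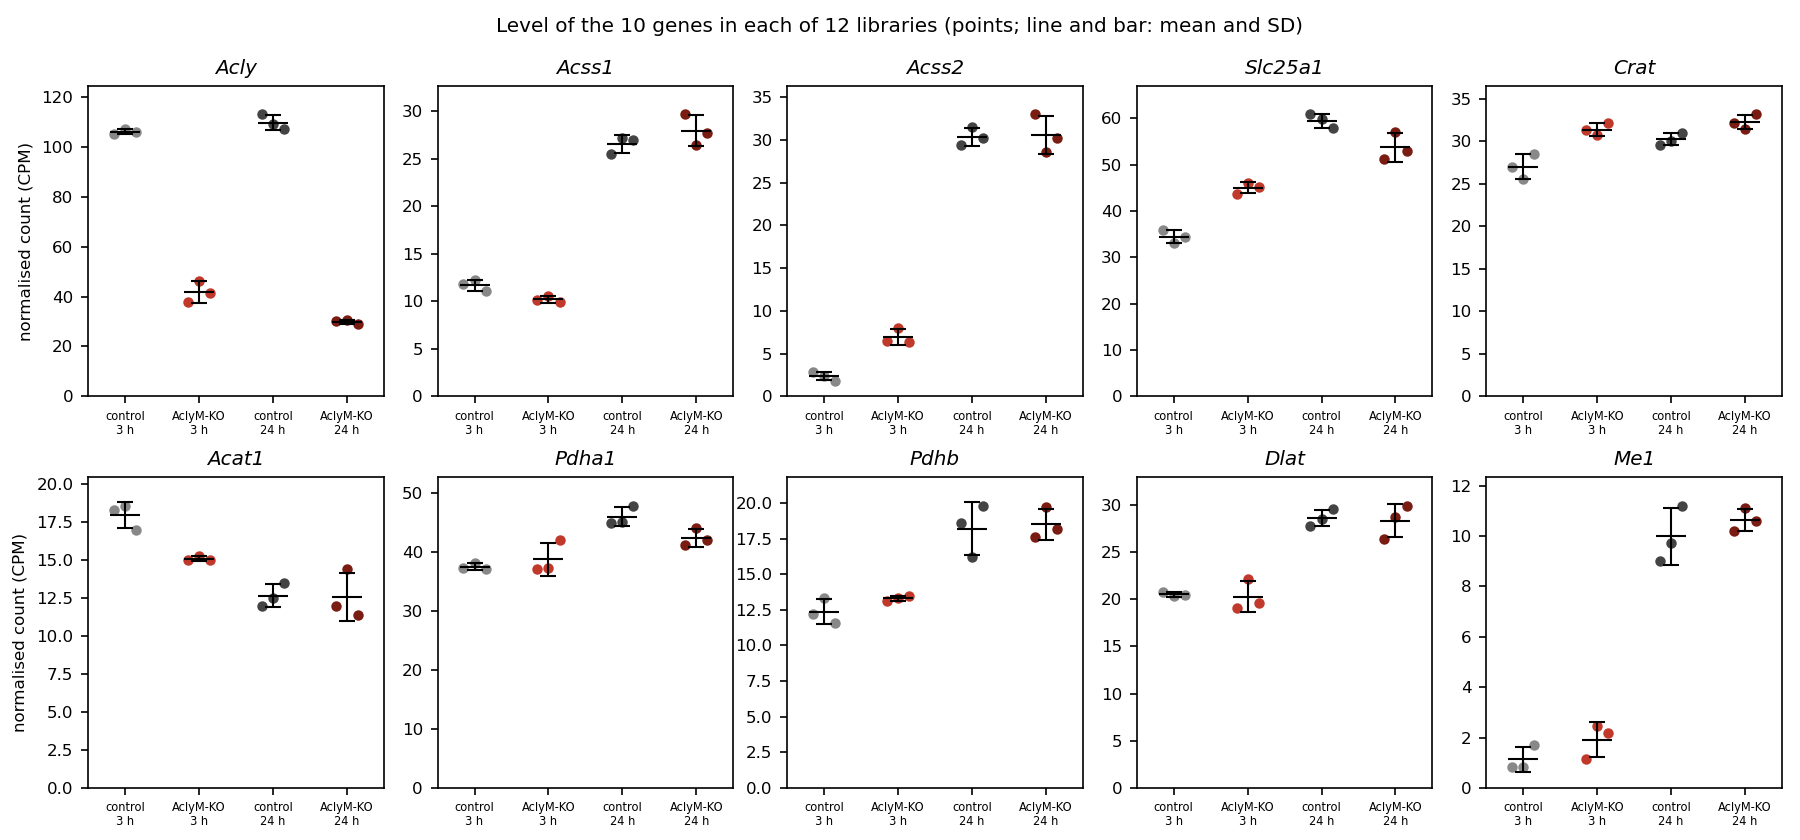
Level of each of the 10 genes in CPM (linear axis from 0, own scale for each gene) in the 3 libraries of each genotype and LPS time, with a line and bar for the mean and SD of each group. Acss2 and Me1 sit near the bottom of their scale in control at 3 h and at the top in both genotypes at 24 h, while Acly separates by genotype at both times.

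Acss2, the cytosolic and nuclear acetyl-CoA synthetase that works from acetate, showed the largest difference among the genes other than Acly. At 3 h the levels were 2.88, 2.43 and 1.84 CPM (58, 52 and 37 counts) in control and 6.51, 8 and 6.35 CPM (127, 183 and 132 counts) in AclyM-KO. At 24 h the levels were 29.4, 31.5 and 30.2 CPM in control and 33, 28.6 and 30.2 CPM in AclyM-KO. All AclyM-KO libraries lay above all control libraries at 3 h, and the genotypes overlapped at 24 h.

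The genotype effect on Acss2 at 3 h was a log2 fold change of 1.55 ± 0.15 (2.92-fold higher, adjusted p = 7.06e-09, edgeR's quasi-likelihood test). At 24 h it was 0.01 ± 0.08, with a 95% interval of -0.15 to 0.17 (adjusted p = 0.951, edgeR). The effects differed by -1.53 ± 0.17 on the log2 scale (95% interval -1.88 to -1.19, adjusted p = 1.78e-07, edgeR), against 9.53% of all genes with a difference past the test and 4.66% with a lower effect at 24 h. Between 3 h and 24 h Acss2 rose 12.7-fold in control (log2 fold change 3.67 ± 0.12) and 4.38-fold in AclyM-KO (2.13 ± 0.10). AclyM-KO cells at 3 h therefore lay between the control levels of 3 h and 24 h.

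Exons of Acss2 share 113 bases with Acss2os, an antisense gene within it, and 197 bases with Ggt7 on the opposite strand. Acss2os was the gene whose pattern over the 12 libraries was most like that of Acss2 among genes with a mean of at least 5 CPM over the libraries, with a root mean square difference of 0.18 between their centred log2 CPM. Its group means were 0.636 CPM in control and 2.46 CPM in AclyM-KO at 3 h, and 9.8 and 9.9 CPM at 24 h. The libraries were strand-specific but the strand setting of the counting is not stated, so reads of this pair may not be told apart. The next most alike were Trib3 (0.28), Gdf15 (0.31), Sesn2 (0.32) and Lrp8 (0.33). Their genotype effects at 3 h were log2 fold changes of 1.87, 1.76, 0.99 and 1.47.

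Slc25a1, the mitochondrial citrate carrier that supplies Acly with its substrate, was higher in AclyM-KO at 3 h, and its genotype effect differed between the times. At 3 h the levels were 35.9, 33.1 and 34.4 CPM in control and 43.7, 46.1 and 45.3 CPM in AclyM-KO. At 24 h the levels were 60.9, 59.8 and 57.9 CPM in control and 51.2, 57.1 and 52.9 CPM in AclyM-KO. The groups did not overlap at either time, with AclyM-KO higher at 3 h and lower at 24 h. Groups did not overlap for 30.1% of all genes at 3 h and 33.1% at 24 h.

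The log2 fold change of Slc25a1 was 0.39 ± 0.06 at 3 h (adjusted p = 5.70e-05, edgeR's quasi-likelihood test). At 24 h it was -0.15 ± 0.06 (adjusted p = 0.0921, edgeR), which missed the threshold; with only the 2 groups of that time in the fit it was -0.16 with an adjusted p of 0.034. The difference of the effects was -0.53 ± 0.09 (95% interval -0.71 to -0.36, adjusted p = 9.29e-05, edgeR). Between 3 h and 24 h Slc25a1 rose by 0.79 ± 0.06 on the log2 scale in control and by 0.25 ± 0.06 in AclyM-KO.

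Me1, the cytosolic malic enzyme, had the lowest level per kilobase of the 10 genes at 3 h (0.343 in control and 0.582 in AclyM-KO), and its genotype effect at that time did not pass the test. At 3 h the levels were 0.844, 0.842 and 1.7 CPM (17, 18 and 34 counts) in control and 1.13, 2.45 and 2.16 CPM (22, 56 and 45 counts) in AclyM-KO. The ranges overlapped. The log2 fold change was 0.79 ± 0.28 (95% interval 0.21 to 1.37, adjusted p = 0.0593, edgeR's quasi-likelihood test). Single libraries decide this call: without AclyM-KO 3 h replicate 1 it was 1.04 (adjusted p = 0.00254, edgeR) and without control 3 h replicate 3 it was 1.20 (adjusted p = 0.0101, edgeR). DESeq2 gave 0.79 with an adjusted p of 0.0182, and edgeR without the low-count filter gave an adjusted p of 0.0103.

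By 24 h the levels of Me1 were 9.02, 9.72 and 11.2 CPM in control and 10.2, 11.1 and 10.6 CPM in AclyM-KO. The genotype effect was 0.07 ± 0.14 (95% interval -0.21 to 0.35, adjusted p = 0.803, edgeR). Every 24 h library lay above every 3 h library. Me1 rose 8.99-fold in control (log2 fold change 3.17 ± 0.21) and 5.45-fold in AclyM-KO (2.45 ± 0.19). The difference of the effects was -0.72 ± 0.31 (adjusted p = 0.158, edgeR), and it passed the test without AclyM-KO 3 h replicate 1 (-0.99, adjusted p = 0.0114) or without control 3 h replicate 3 (-1.14, adjusted p = 0.0325). The most alike genes by pattern were 9530082P21Rik (0.30), Slamf9 (0.31) and H2-T24 (0.31).

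Acss1, the mitochondrial acetyl-CoA synthetase, rose with LPS duration in both genotypes and passed no test of genotype. At 3 h the levels were 11.8, 12.2 and 11.1 CPM in control and 10.1, 10.6 and 9.95 CPM in AclyM-KO. At 24 h the levels were 25.5, 27.2 and 27 CPM in control and 29.7, 26.5 and 27.7 CPM in AclyM-KO. The AclyM-KO libraries were all lower at 3 h without overlap, and the genotypes overlapped at 24 h. The log2 fold change was -0.19 ± 0.09 at 3 h (95% interval -0.37 to -0.01, adjusted p = 0.165) and 0.07 ± 0.07 at 24 h (95% interval -0.07 to 0.21, adjusted p = 0.557, both edgeR). With LPS duration Acss1 rose by 1.19 ± 0.08 on the log2 scale in control and by 1.45 ± 0.08 in AclyM-KO.

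Crat, carnitine acetyltransferase, was slightly higher in AclyM-KO at 3 h. At 3 h the levels were 27, 25.6 and 28.5 CPM in control and 31.3, 30.7 and 32.2 CPM in AclyM-KO, without overlap. The log2 fold change was 0.22 ± 0.07 (adjusted p = 0.0277, edgeR's quasi-likelihood test). This call rests on single libraries: the adjusted p was 0.104 without AclyM-KO 3 h replicate 3, 0.0706 without control 3 h replicate 1 and 0.127 without control 3 h replicate 2, and it was 0.0677 with only the 3 h groups fitted. At 24 h they were 29.6, 30.1 and 31 CPM in control and 32.2, 31.5 and 33.2 CPM in AclyM-KO, again without overlap. The effect there was 0.09 ± 0.06 (95% interval -0.04 to 0.22, adjusted p = 0.378, edgeR), and the effects were not shown to differ (-0.12, adjusted p = 0.455).

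Acat1, the mitochondrial thiolase that joins or splits acetoacetyl-CoA, fell with LPS duration in both genotypes. In control the levels were 18.3, 18.6 and 17 CPM at 3 h and 12, 12.5 and 13.5 CPM at 24 h. In AclyM-KO they were 15, 15.3 and 15 CPM at 3 h and 12, 14.4 and 11.4 CPM at 24 h. Between the times Acat1 fell by 0.49 on the log2 scale in control (adjusted p = 8.58e-06) and by 0.26 in AclyM-KO (adjusted p = 0.0105, both edgeR); without AclyM-KO 24 h replicate 3 the latter was -0.20 with an adjusted p of 0.0768. The genotype effect at 3 h was -0.25 ± 0.09 (95% interval -0.44 to -0.07, adjusted p = 0.0548, edgeR), with AclyM-KO libraries all below the control ones.

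**Figure D2:**
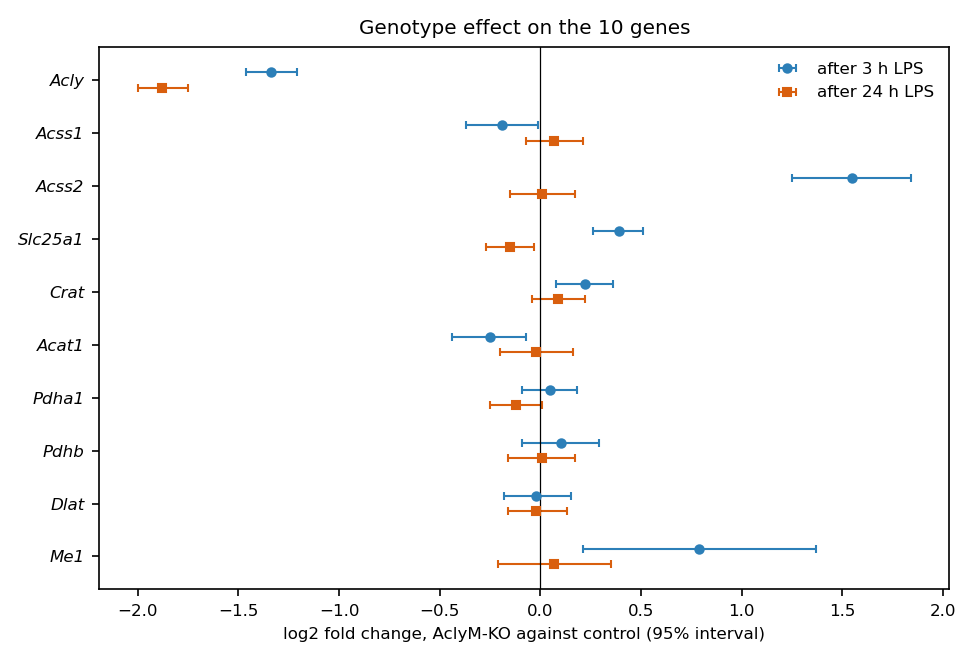
Log2 fold change of AclyM-KO against control for each of the 10 genes after 3 h and 24 h LPS, with 95% intervals from the edgeR fit over 12 libraries. Acss2 stands at 1.55 at 3 h and 0.01 at 24 h, Slc25a1 at 0.39 and -0.15, and Acly at -1.34 and -1.88.

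The subunits of the pyruvate dehydrogenase complex, which makes mitochondrial acetyl-CoA from pyruvate, passed no test of genotype at either time. Pdha1 and Pdhb encode the subunits of its first enzyme and Dlat the acetyltransferase. At 3 h Pdha1 libraries ranged from 37.1 to 38.1 CPM in control and 37 to 42 CPM in AclyM-KO, with a log2 fold change of 0.05 ± 0.07 (95% interval -0.09 to 0.18, adjusted p = 0.708). Pdhb ranged from 11.6 to 13.3 and 13.1 to 13.5 CPM (0.10 ± 0.09, interval -0.09 to 0.29, adjusted p = 0.527). Dlat ranged from 20.3 to 20.8 and 19.1 to 22.1 CPM (-0.02 ± 0.08, interval -0.18 to 0.15, adjusted p = 0.93, all edgeR). The ranges overlapped for all 3.

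At 24 h Pdha1 ranged from 44.9 to 47.8 CPM in control and 41.1 to 44 CPM in AclyM-KO, without overlap, and the log2 fold change was -0.12 ± 0.06 (95% interval -0.25 to 0.01, adjusted p = 0.217). Pdhb (0.01 ± 0.08, interval -0.16 to 0.17) and Dlat (-0.02 ± 0.07, interval -0.16 to 0.13) overlapped between the genotypes. With LPS duration Pdhb rose by 0.57 ± 0.09 in control and by 0.48 ± 0.09 in AclyM-KO on the log2 scale, and Dlat rose by 0.48 ± 0.07 in both. Pdha1 rose in control by 0.29 ± 0.06; in AclyM-KO its change was 0.13 (interval -0.00 to 0.26, adjusted p = 0.0669), and it passed the test without AclyM-KO 3 h replicate 3 (0.19, adjusted p = 0.0161). Exons of Pdha1 share 603 bases with Map3k15 on the opposite strand, and its near-copy Pdha2 was at 0 counts in all 12 libraries.

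With LPS duration, 9 of 10 genes passed the test in control (8 higher, Acat1 lower) and 8 of 10 in AclyM-KO (6 higher, Acly and Acat1 lower). The same test called 74.9% of all genes in control (38.9% higher and 36% lower at 24 h) and 75.7% in AclyM-KO (39.4% higher and 36.3% lower). The median log2 fold change of the 10 genes was 0.53 in control and 0.36 in AclyM-KO, against 0.04 over all genes in each. Past the fold threshold of 0.75 were Acss2, Me1, Acss1 and Slc25a1 in control and Acss2, Me1 and Acss1 in AclyM-KO (4 and 3 of 10), where 40.4% and 41.9% of all genes passed. Crat rose in control by 0.17 ± 0.07 (adjusted p = 0.0247, edgeR), a call lost without control 24 h replicate 4 (0.15, adjusted p = 0.0777) or control 3 h replicate 2 (0.14, adjusted p = 0.0973). The genotype and duration effects are contrasts of the same 12 libraries.

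**Figure D3:**
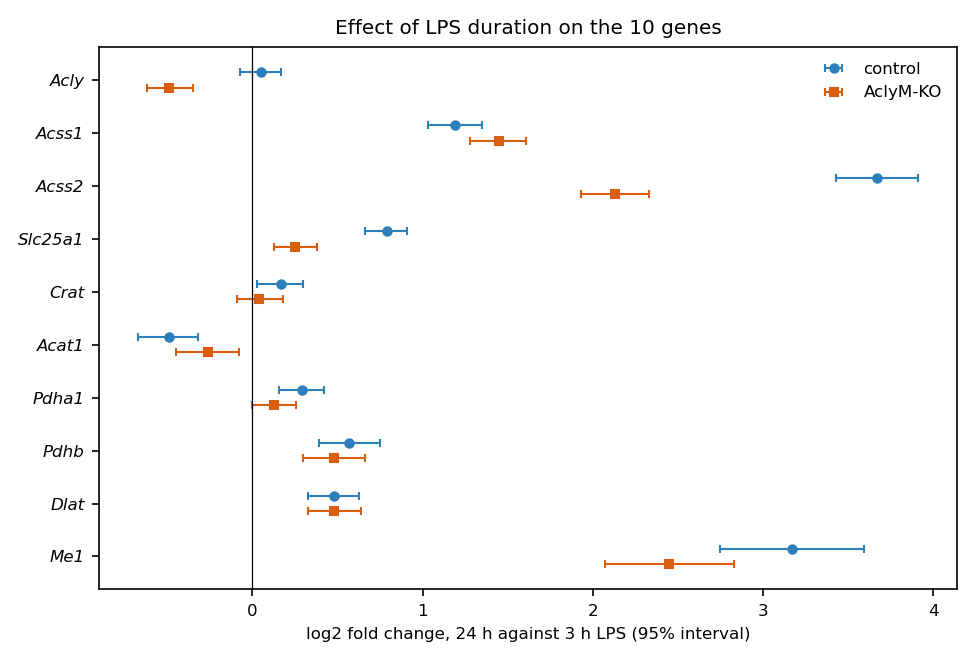
Log2 fold change of 24 h against 3 h LPS for each of the 10 genes in control and AclyM-KO cells, with 95% intervals from the edgeR fit. Acss2 (3.67 in control, 2.13 in AclyM-KO) and Me1 (3.17 and 2.45) lie farthest right, and Acly lies at 0.05 in control and -0.49 in AclyM-KO.

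Set per transcript length, levels of both acetyl-CoA synthetases exceeded that of Acly in AclyM-KO cells at 24 h. The ratio of Acss2 to Acly levels was 0.0341 ± 0.0077 (SD, n = 3) in control and 0.251 ± 0.0176 in AclyM-KO at 3 h, and 0.418 ± 0.022 and 1.55 ± 0.121 at 24 h. The ratio of Acss1 to Acly was 0.135 ± 0.00617 and 0.301 ± 0.0248 at 3 h, and 0.296 ± 0.0175 and 1.14 ± 0.0744 at 24 h. Both ratios were above 1 in all 3 AclyM-KO libraries at 24 h and in no other library. The lower Acly level enters each of these ratios, so they do not measure the synthetases alone.

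The ratio of the cytosolic to the mitochondrial synthetase, Acss2 to Acss1, does not contain Acly. It was 0.251 ± 0.0488 in control and 0.836 ± 0.0809 in AclyM-KO at 3 h, and 1.41 ± 0.0258 and 1.35 ± 0.0195 at 24 h (SD, n = 3). The groups did not overlap at either time, with AclyM-KO higher at 3 h and lower at 24 h, although the latter ranges are close (1.33 to 1.37 against 1.38 to 1.43). The subunit ratios of pyruvate dehydrogenase were as follows: Dlat to Pdhb stayed between 0.572 and 0.624 as group means, and Pdha1 to Pdhb was 1.62 and 1.55 at 3 h and 1.35 and 1.22 at 24 h. In control cells at 24 h the order of levels per kilobase was Slc25a1 (35.7), Acly (24.8), Pdha1 (16.1), Pdhb (12), Acss2 (10.4), Crat (7.89), Acss1 (7.35), Dlat (7.09), Acat1 (3.72) and Me1 (3.04). Of the neighbours in that order, the libraries of Pdhb and Acss2 met at 10.7 and those of Acss1 and Dlat overlapped in range, and the other neighbours did not overlap.

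**Figure D4:**
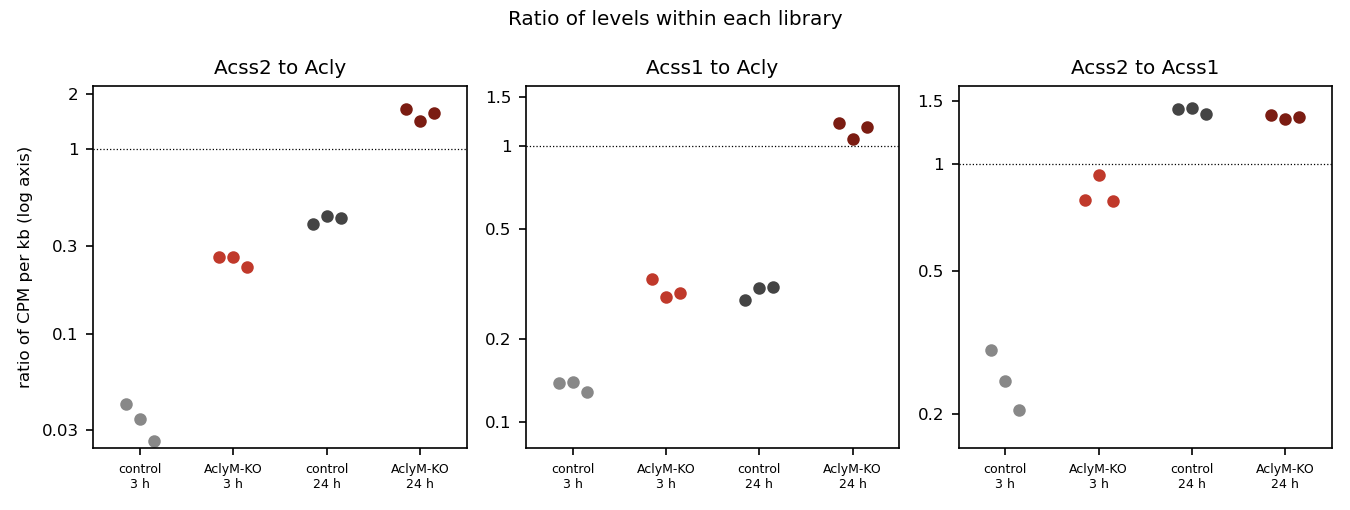
Ratio of CPM per kilobase between pairs of genes within each library (log axes), for the 3 libraries of each group, with a dotted line at equal levels. Acss2 to Acly and Acss1 to Acly exceed the line only in the 3 AclyM-KO libraries at 24 h, and Acss2 to Acss1 exceeds it in every library at 24 h.

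The routes also hold 52 further genes listed by role, again with earlier results of these data known. Of them, 44 passed the filter on low counts. At 3 h, 10 of the 44 passed the test (8 higher and 2 lower in AclyM-KO), and at 24 h, 13 passed (4 higher and 9 lower), against the 15.4% and 13.9% of all genes. Their median log2 fold change was 0.12 at 3 h and -0.08 at 24 h. The difference of the effects passed the test for 9 of 44, all lower at 24 h, against 4.66% of all genes with a lower effect. Pdha2, Pdk4 and Slc13a5 had 0 counts in all 12 libraries, and Acss3, Acot12, Aspa and Me3 had at most 7 counts each.

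Of the 3 listed users of cytosolic acetyl-CoA, 2 passed the test at each time, both higher in AclyM-KO at 3 h and both lower at 24 h. Over all genes, the test called 15.4% at 3 h (8.5% higher) and 13.9% at 24 h (5.57% lower). Hmgcs1, the HMG-CoA synthase of cholesterol synthesis, had group means of 138 CPM in control and 217 CPM in AclyM-KO at 3 h and 109 and 62.4 CPM at 24 h, with log2 fold changes of 0.65 ± 0.06 and -0.81 ± 0.06 (adjusted p = 1.49e-09 and 4.29e-11, edgeR). Acaca, the acetyl-CoA carboxylase that starts fatty acid synthesis, had 6 and 8.49 CPM at 3 h and 12.6 and 8.87 CPM at 24 h (0.51 ± 0.13 and -0.51 ± 0.11). The remaining gene, Acacb, the mitochondrial acetyl-CoA carboxylase, had group means of at most 0.596 CPM and log2 fold changes of -0.91 ± 0.50 at 3 h and -0.18 ± 0.47 at 24 h (adjusted p = 0.242 and 0.849, edgeR). The effects at 24 h and 3 h differed by -1.46 for Hmgcs1 and -1.02 for Acaca on the log2 scale.

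Of the 7 thiolase and ketone body genes tested, 2 passed the test at 3 h, both higher, and 3 at 24 h, 2 higher and 1 lower. The shares over all genes were 15.4% at 3 h and 13.9% at 24 h. Acat2, the cytosolic thiolase at the start of cholesterol synthesis, had group means of 3.52 CPM in control and 11.6 CPM in AclyM-KO at 3 h and 9.9 and 6.03 CPM at 24 h. Its log2 fold changes were 1.72 ± 0.14 and -0.73 ± 0.12 (adjusted p = 3.40e-10 and 5.52e-05, edgeR), and they differed by -2.45.

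Around pyruvate, Pcx, the carboxylase that makes oxaloacetate, rose at 3 h from a group mean of 1.22 to 2.89 CPM (log2 fold change 1.25 ± 0.21, adjusted p = 7.93e-05, edgeR), and at 24 h its effect was 0.19 ± 0.14 (interval -0.09 to 0.47). Pdp2, a phosphatase that activates pyruvate dehydrogenase, rose by 0.46 ± 0.12 at 3 h and fell by 0.39 at 24 h. Among the kinases that inhibit the complex, Pdk1 fell by 0.71 at 24 h (12.9 to 7.89 CPM, adjusted p = 9.61e-05) and Pdk3 rose by 0.39 ± 0.09 (10.8 to 14.3 CPM, adjusted p = 0.00409, both edgeR). Of the dicarboxylate and citrate transporters, Slc13a3 rose by 0.78 ± 0.16 at 3 h and Slc25a10 fell by 0.44 at 24 h.

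With LPS duration, 32 of the 44 further genes passed the test in each genotype (18 higher and 14 lower in control, 15 and 17 in AclyM-KO), against 74.9% and 75.7% of all genes. Among those with a mean of at least 5 CPM in a group, the largest in control were Pcx (1.95), the monocarboxylate transporter Slc16a1 (-1.83), the mitochondrial thiolase Acaa2 (-1.54), Acat2 (1.51), the phosphatase Pdp1 (1.32) and malate dehydrogenase Mdh2 (1.24), as log2 fold changes. In AclyM-KO, with the same minimum, they were Slc16a1 (-2.18), Acaa2 (-1.91), Hmgcs1 (-1.80), Pdk1 (-1.68), Pdp1 (1.32) and isocitrate dehydrogenase Idh2 (-1.30). Ldhb, a lactate dehydrogenase subunit under that minimum, fell by 1.61 in control and by 1.89 in AclyM-KO, and Bdh1, a ketone body dehydrogenase also under it, rose by 1.33 in control. Acacb, Ldhb and Bdh1 were named after their values were seen. Of the carnitine handling genes, 1 of 5 passed the test in control and 2 of 5 in AclyM-KO.

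**Figure D5:**
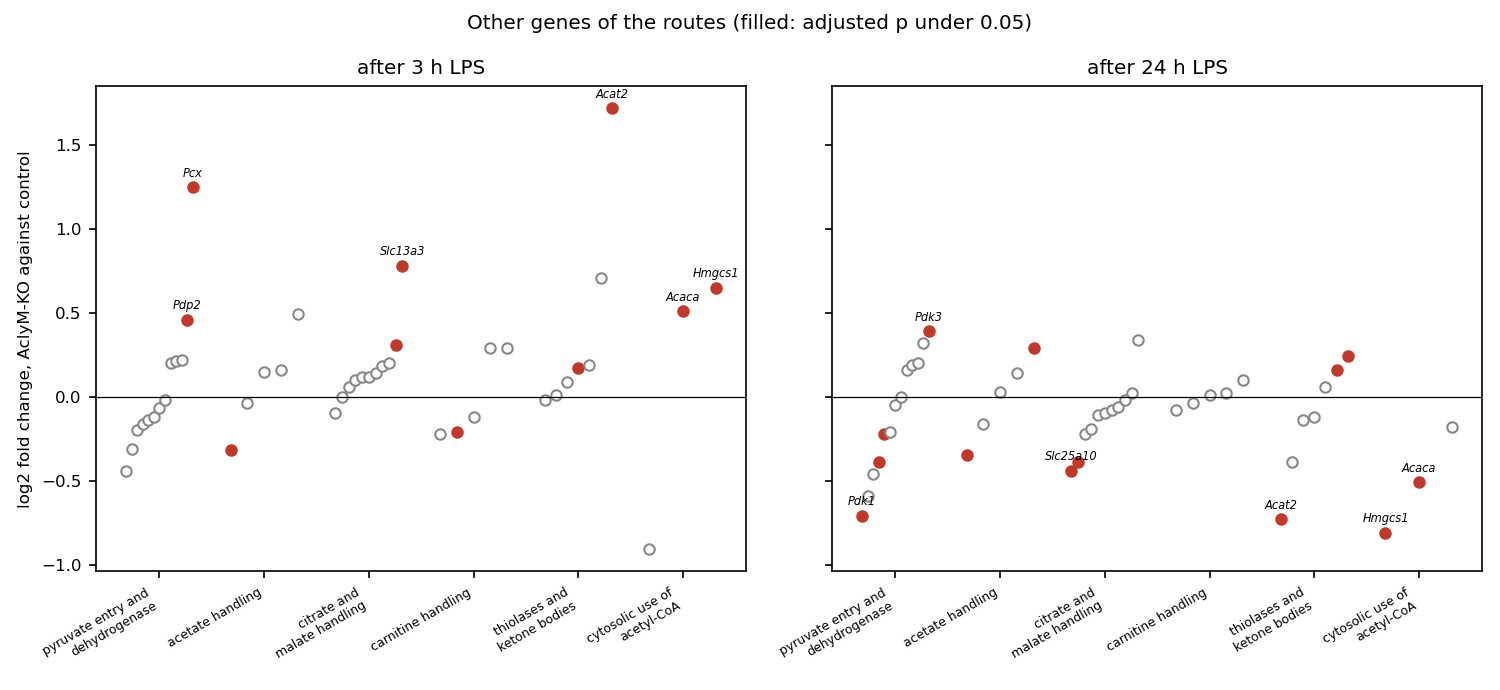
Log2 fold change of AclyM-KO against control at 3 h (left) and 24 h (right) for the 44 further genes of the routes, grouped by role, with filled points past an adjusted p of 0.05 in the edgeR fit open points not past it, and labels for the largest changes past it with a mean of at least 5 CPM in a group. Acat2, Pcx, Hmgcs1 and Acaca lie above 0 at 3 h, and Acat2, Hmgcs1 and Acaca lie below 0 at 24 h.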

How the data were processed

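Libraries were prepared with a strand-specific mRNA kit. The authors aligned reads to mm10 with STAR 2.5.2b (CASAVA 1.8.2 is also named in the submitters' processing notes), filtered alignments with SAMtools, and used HOMER to sum tags for each RefSeq transcript. What was deposited are these raw counts, which are whole numbers and not normalized. The strand setting of the counting is not given in the sources used here. Of 35745 transcripts, 35628 were matched to a symbol, and 1.13% of counts lay in unmatched ones, which stayed in the fit. Of the table's columns, 0 were unused.

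Groups came from the labels. The 10 genes, the further route genes and the marker lists were chosen with earlier results of these data known. Further genes were named by the largest changes past the test, up to 6 per comparison, with a mean of at least 5 CPM in a group. Of the listed genes, 1 is not reported here. Likeness of patterns used log2(CPM + 0.1). The main model was edgeR 4.0.16 (R 4.3.3) with TMM, filterByExpr and robust quasi-likelihood fits on 12 libraries and 4 groups, with Benjamini-Hochberg adjustment over all 19621 transcripts tested (11904 genes). A gene passed at an adjusted p under 0.05. Intervals are 95% and not adjusted. Control 24 h replicate 1 was left out because it held 34467 counts. Scripts were tested on simulated counts. Replicate pairs of the 12 libraries differed by more than sampling noise (chi-square per degree of freedom 2.39 to 11). Alternatives were all 13 libraries, other normalization and filters, DESeq2 1.42.0, 1 transcript per gene, stricter thresholds, only the groups compared, the replicate number as a block, and leaving out each library in turn.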

Additional observations from a re-analysis of the deposited data

Results flagged for a closer look

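Control 24 h replicate 1 stood apart from the other 3 control libraries at 24 h for 7 of the 10 genes. Its gap to the nearest library, as a share of the whole range, was 0.94 for Acly, 0.934 for Acss2, 0.951 for Slc25a1, 0.844 for Crat, 0.853 for Acat1, 0.933 for Pdha1 and 0.896 for Dlat, above Dixon's 95% critical value for 4 samples. Chance alone passes that value in about 1 in 20 groups of like samples. Here each gene had at most 4 counts in that library, where 1 count stands for 29 CPM of its raw total. That rate therefore does not apply, and the gaps do not show that levels differed. The library held 34467 counts, and the 7 genes share it, so these flags are not independent signs.

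The genotype effect differed between 24 h and 3 h LPS, by the interaction contrast of the edgeR fit, for Acly (-0.54 on the log2 scale, adjusted p = 9.29e-05), Acss2 (-1.53, adjusted p = 1.78e-07) and Slc25a1 (-0.53, adjusted p = 9.29e-05).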

How the results depend on the processing

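Depth limited Me1 and Acss2 at 3 h most, with 17 to 56 counts of Me1 per library. The counts of the 10 genes past the test stayed within 1.5 times under the alternatives run, except at 24 h with only the groups compared, where 2 genes passed against 1. Effects near 0 that passed no test changed sign. At 24 h Acss2 became -0.01 and Pdhb -0.02 without the filter, and -0.00 and -0.01 with only the groups compared. With the replicate number as a block, the 24 h effects became -0.03 for Acss2, 0.04 for Acat1 and 0.04 for Dlat, and the differences of effects became 0.00 for Pdhb and 0.06 for Dlat. Leaving out 1 library at a time gave -0.02 to 0.08 for Pdha1 and -0.08 to 0.03 for Dlat at 3 h, -0.05 to 0.06 for Acss2, -0.13 to 0.04 for Acat1, -0.06 to 0.08 for Pdhb and -0.06 to 0.03 for Dlat at 24 h, and -0.06 to 0.05 for the Dlat difference. For all of these the cause was not tested. Single genes kept their direction and side of the test in 374 other combinations of gene, comparison and setting, and in 334 with a library left out. The rise of Crat with LPS duration in control missed the test with DESeq2 size factors in edgeR (adjusted p = 0.0549), with DESeq2 (0.0668) and with the block (0.0826). Deviations of same-numbered libraries from their group means had correlations of -0.03 to 0.06 over 15 pairs. Of 30 comparisons of a library with a group of 3, 18 were best with the own number. Between AclyM-KO at 24 h and at 3 h, same-numbered correlations were 0.058, 0.038 and 0.040 and all others were negative. Deviations from a group mean sum to 0, so positive values in some pairs push the others below 0, and the negative values add no separate sign. Elsewhere the same-numbered values lay on both sides of 0. The column headers of the counts hold running numbers. Without control 24 h replicate 1, their gaps match between the times in each genotype. By them control 24 h replicate 4 goes with control 3 h replicate 1, and their correlation was the highest of all pairs (0.074). The other control pairs so matched had -0.0053 and 0.018. What these numbers stand for is not stated, and the main fit used no pairing of libraries between times. A shared source of libraries across groups is therefore not excluded, and the labels do not state one. The block changed no other call among the 10 genes and moved the count of all genes past the test at 24 h from 1653 to 1033. In the block fit control 24 h replicate 4 was alone with its number, so it added nothing to the comparisons. That fall can therefore not be read as an effect of the shared numbers alone.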

Other observations

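In control 24 h replicate 1, which entered no comparison, Acly, Acss1, Crat and Acat1 had 1 count each, Dlat had 2 and Pdha1 had 4, while Acss2, Slc25a1, Pdhb and Me1 had 0. In that library 1 count stands for 29 CPM of its raw total, so a count of 0 does not separate these genes from the levels of the other 24 h libraries.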
